A study of Mus musculus with 12 samples.

Results

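The genes described here are 40 interferon-stimulated and RNA-sensing genes, chosen by symbol out of the 54532 genes of a mouse RNA-seq count table, and the question put to them is which of them rose after DNA damage in cells without p53. Poly(A) RNA was sequenced from E14 mouse embryonic stem cells, a long-established line, here grown on gelatin with LIF and the 2i kinase inhibitors. The 12 libraries form 6 groups of 2: p53 knockout (p53 KO) cells given doxorubicin, p53 KO cells given vehicle, Dux knockout (Dux KO) cells given doxorubicin, Dux KO cells given vehicle, wild-type cells given doxorubicin and wild-type cells given vehicle. Doxorubicin, a poison of topoisomerase that breaks DNA, was given at 1 uM for 6 h and then withdrawn, and vehicle cells had DMSO on the same schedule. The time in drug-free medium and the kind of edit behind each knockout are not given in the sources used here. Each knockout is represented by a pair of lines, numbered 1 and 2, and library 1 or 2 of a knockout group comes from the line of that number. Both wild-type libraries of a group carry the same line name, are called a and b here, and have no number that pairs them. The p-values therefore measure the spread between cultures of 1 wild-type line and between lines of each knockout.

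Cells detect viral or misplaced nucleic acid with sensor proteins such as RIG-I and MDA5, which signal through the adaptor MAVS to kinases and transcription factors of the IRF and NF-kB families. The interferons made in response bind surface receptors, and a complex that holds STAT2 and IRF9 then binds the interferon-stimulated response element (ISRE) in front of interferon-stimulated genes. Pluripotent stem cells are known for a weak interferon response, and p53 is known to act on several genes of this system in differentiated cells.

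The promoter windows below show the ISRE core before or just after the transcript start of 4 genes that rose in p53 KO cells given doxorubicin. These genes had the smallest adjusted p among risers whose window holds such a core. Capitals mark the core, which is GAAA, any 2 bases and GAAA again, searched on both strands (TTTC, any 2 bases and TTTC where it lies on the opposite strand). Each window runs from 250 bases before to 50 bases after the RefSeq transcript start, 5′ to 3′ on the strand of the gene, from RefSeq on GRCm38.p6. Igtp codes for an interferon-induced GTPase and lies on the plus strand (chr11:58199306-58199605). Tgtp1, another such GTPase, lies on the minus strand (chr11:48992197-48992496). Ddx58, which codes for the sensor RIG-I, lies on the minus strand (chr4:40239776-40240075). Stat2, a subunit of the complex that binds the ISRE, lies on the plus strand (chr10:128270248-128270547).
Igtp: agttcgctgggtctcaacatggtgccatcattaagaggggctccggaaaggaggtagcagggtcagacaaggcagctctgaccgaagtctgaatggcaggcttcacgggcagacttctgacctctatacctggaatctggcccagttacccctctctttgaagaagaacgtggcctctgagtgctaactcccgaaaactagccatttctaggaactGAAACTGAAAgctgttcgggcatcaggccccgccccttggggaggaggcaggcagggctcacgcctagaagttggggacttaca
Tgtp1: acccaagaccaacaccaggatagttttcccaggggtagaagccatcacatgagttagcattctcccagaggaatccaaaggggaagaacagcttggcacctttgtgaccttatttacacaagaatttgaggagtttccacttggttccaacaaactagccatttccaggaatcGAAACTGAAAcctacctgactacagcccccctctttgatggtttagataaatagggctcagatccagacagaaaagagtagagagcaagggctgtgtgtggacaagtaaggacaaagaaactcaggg
Ddx58: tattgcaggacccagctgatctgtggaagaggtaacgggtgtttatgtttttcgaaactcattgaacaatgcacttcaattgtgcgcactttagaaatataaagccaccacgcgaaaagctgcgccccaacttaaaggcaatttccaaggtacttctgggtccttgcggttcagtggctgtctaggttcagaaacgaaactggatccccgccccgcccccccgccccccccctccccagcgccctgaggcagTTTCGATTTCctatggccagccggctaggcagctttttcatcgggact
Stat2: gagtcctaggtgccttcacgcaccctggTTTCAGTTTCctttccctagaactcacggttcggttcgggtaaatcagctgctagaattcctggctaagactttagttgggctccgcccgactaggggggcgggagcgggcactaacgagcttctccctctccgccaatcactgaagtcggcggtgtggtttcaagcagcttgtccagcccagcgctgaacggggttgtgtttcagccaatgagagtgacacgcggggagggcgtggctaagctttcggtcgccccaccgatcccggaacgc

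Of the 40 genes, 30 matched a RefSeq window, and 19 of these (63.3%) held at least 1 ISRE core, against 1079 of 27025 genes with a window (3.99%). Overlapping cores were counted as separate positions of the same gene. Counted from the transcript start, the core began at base -34 in Igtp, -77 in Tgtp1, -222 in Stat2 and 3 in Ddx58. Of the members with a window, 10 of 13 that rose in p53 KO cells held a core, and so did 7 of 14 that were tested and did not pass. A related motif of STAT dimers, TTCNNNGAA, was in 8 of the 30 windows (26.7%), against 9.55% of all genes. The members were listed as interferon-stimulated genes, so motif shares above those of all genes come with the choice of list and are not read as a result. Near-identical copies, such as Tgtp1 and Tgtp2, count as separate genes in these shares. A match of letters is a description and not a measured binding site.

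**Figure D1:**
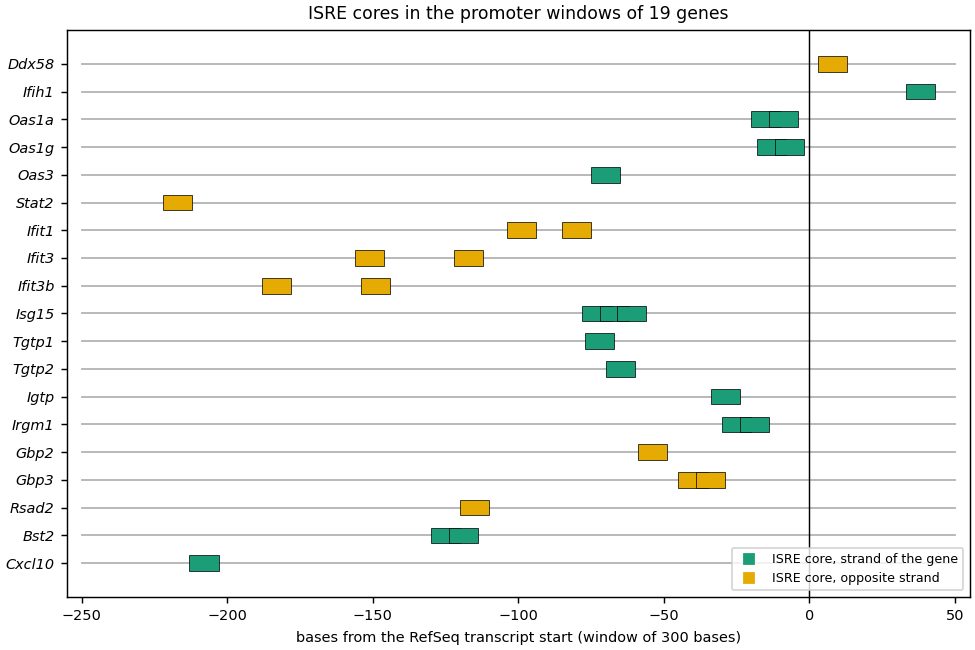
Positions of ISRE cores (boxes, 10 bases wide) in the promoter windows of the 19 genes that hold one. The x axis gives bases from the RefSeq transcript start over the window of 300 bases, and colour gives the strand of the core. Cores lie after the start in Ddx58 and Ifih1 and before it in the others.

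Total counts ran from 23270358 to 56795858 per library over the 11 libraries tested. The count column of Dux KO vehicle library 2 repeats that of Dux KO doxorubicin library 1 in 54532 of 54532 genes, so it was left out. Its values below were recovered from its FPKM column, enter no test of counts unless said, and stand second in each pair of Dux KO vehicle values. The limma alternatives, run on FPKM, used that FPKM column and so both Dux KO vehicle libraries. For the single Dux KO vehicle library left in the counts, the edgeR fit takes the spread seen in the other 5 groups. Trp53, the targeted gene, had 95.5 and 42.6 CPM (counts scaled to library size) in p53 KO doxorubicin libraries and 72.4 and 39.8 CPM in p53 KO vehicle libraries, against 135 and 133 CPM in wild-type doxorubicin libraries and 193 and 159 CPM in wild-type vehicle libraries. It was thus lower in the p53 KO libraries but not absent, line 1 being above line 2. Duxf3, the Dux gene of the annotation, had 0 counts in the 4 Dux KO libraries and 21.6 and 22.8 CPM in wild-type doxorubicin libraries. The gene lengths behind the FPKM values match whole gene spans. Whether reads in introns were counted and whether strand was used are not given, so reads of overlapping genes may not be told apart. Of the 40 members, 16 overlap another annotated gene, 14 of them in exons. In bulk samples, fewer cells expressing a gene and less RNA per cell cannot be told apart either.

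Of the 40 members, 37 passed the filter on low counts and were tested with the quasi-likelihood test of edgeR, with Benjamini-Hochberg adjustment over 28643 genes, a call being an adjusted p under 0.05. In p53 KO cells 17 members rose with doxorubicin, 0 fell and 20 were not called, where 9.31% of all genes tested rose and 8.09% fell. None of the 37 had an unadjusted p under 0.05 in the downward direction, and DESeq2 and limma also called 0 down. Members with few counts in p53 KO vehicle libraries, such as Ifit1 (0), Isg15 (2), Tgtp2 (2) and Usp18 (4), could hardly be called down. Such members can pass the filter through drug libraries alone, so the 0 is partly set in advance. The median log2 fold change was 1.65 over the members (1.58 with a gene at 0 in a whole group set to its bound), against 0.18 over all genes. In wild-type cells 15 members rose and 12 fell, where 29% of all genes rose and 23.4% fell, with a median of 0.59 over the members (0.05 with bounds) against 0.13. In Dux KO cells 9 rose and 7 fell, where 14.5% and 11.9% of all genes did, with a median of 0.70 over the members (0.00 with bounds) against 0.00. The count of 12 members down in wild-type cells became 6 without wild-type vehicle library a or doxorubicin library b, and 7 without vehicle library b or doxorubicin library a. The count of 7 down in Dux KO cells became 3 without either doxorubicin library. With the knockout line as a replicate block, the 17 members up in p53 KO cells became 28. The share of all genes called with the block is not given, so the block counts here and below have no such share beside them. The 11 added were Dhx58, Oas1a, Oas1b, Oas1g, Oas3, Oasl1, Irf1, Usp18, Mx2, Ifi27 and Xaf1. Ifi44, Ifit3 and Ifit3b were not tested, with at most 4 counts in any group of the deposited table.

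**Figure D2:**
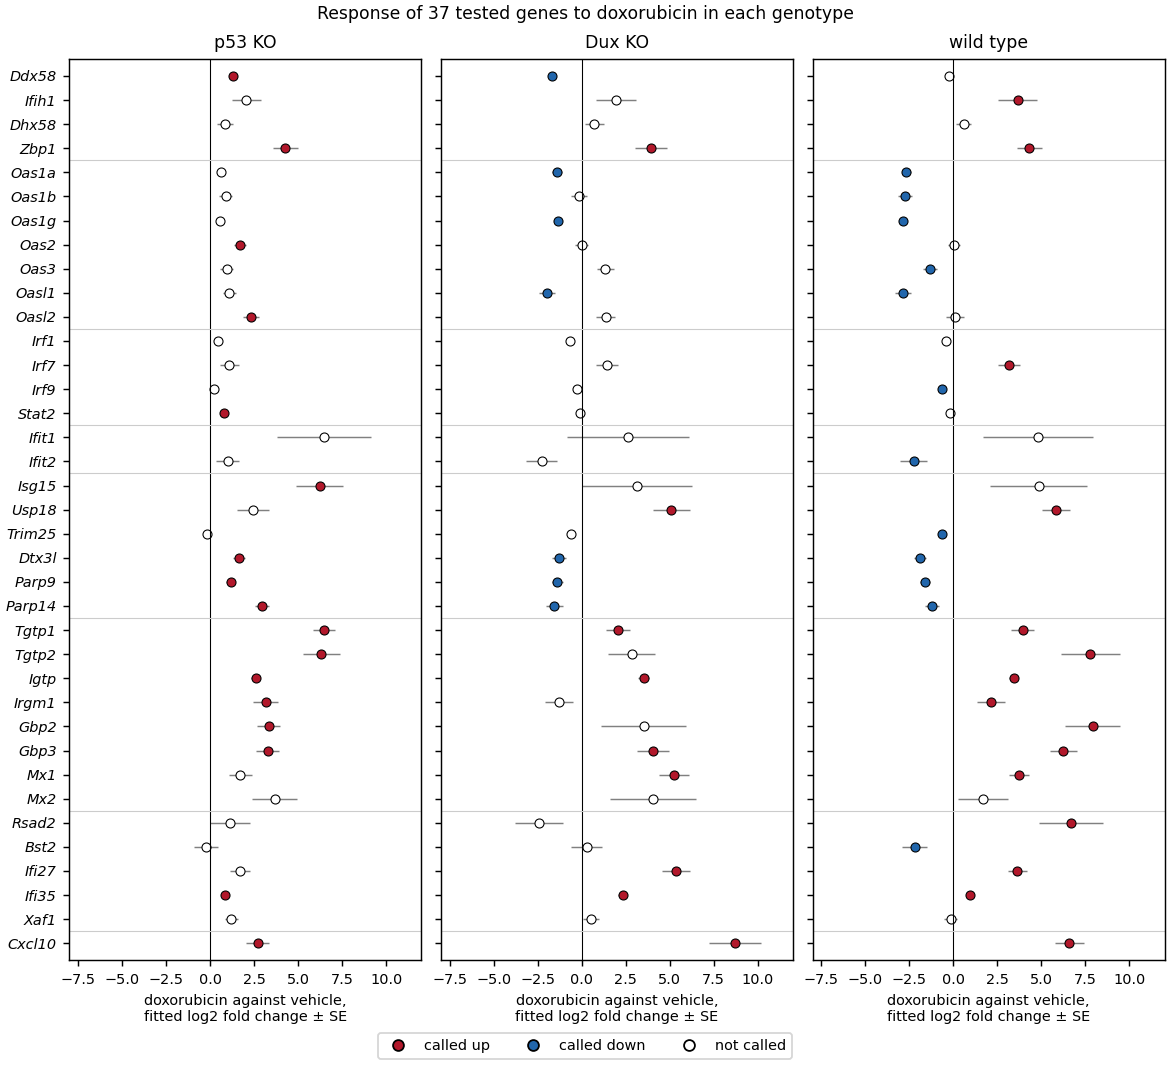
Fitted log2 fold change of doxorubicin against vehicle (points, with SE as bars) for the 37 tested members in p53 KO, Dux KO and wild-type cells, grouped by role from sensors at the top to the chemokine Cxcl10 at the bottom. Filled points passed the test, and no member was called down in p53 KO cells. Values of genes at 0 counts in a whole group (such as Ifit1) depend on the prior count of the fit.

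The response itself was compared between genotypes as the difference of the fitted log2 responses. The p53 KO response was higher than the wild-type response in 13 members and lower in 1, Cxcl10, where 9.9% and 10.3% of all genes tested were called in these directions. Of the 13, 9 fell in wild-type cells and 7 rose in p53 KO cells. The 9 that fell in wild-type cells were Oas1a, Oas1b, Oas1g, Oas3, Oasl1, Irf9, Dtx3l, Parp9 and Parp14. Of these, Dtx3l, Parp9 and Parp14 also rose in p53 KO cells, and the other 6 were not called there (5 of them, all but Irf9, rose there with the replicate block). The remaining 4, Ddx58, Oas2, Oasl2 and Stat2, rose in p53 KO cells and were not called in wild-type cells. The median difference was 1.03 over the members (1.35 with bounds), against 0.05 over all genes. With the replicate block, 19 members were higher and 4 lower, the added ones being Tgtp1, Irf1, Trim25, Ifit2, Bst2 and Xaf1 above and Igtp, Usp18 and Ifi27 below. The call on Cxcl10 was lost without wild-type vehicle library a or either wild-type doxorubicin library, without either p53 KO vehicle library, and without p53 KO doxorubicin library 2, with an adjusted p of up to 0.14.

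**Figure D3:**
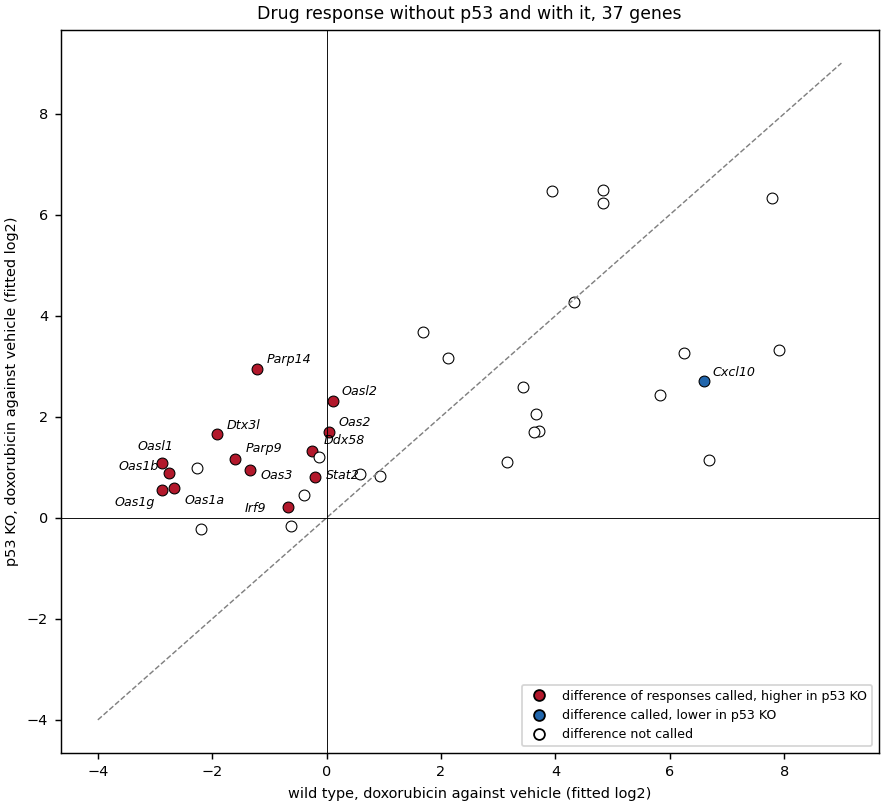
Doxorubicin response of the 37 tested members in p53 KO cells (y axis, fitted log2) against that in wild-type cells (x axis, fitted log2), with the line of equal response dashed. The 13 members with a called higher response in p53 KO cells lie above the line at a wild-type log2 of 0.11 or less, and Cxcl10, called lower, lies below it.

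Under vehicle, 0 of the 37 members differed between p53 KO and wild-type cells by edgeR, where 0.14% of all genes were called higher and 0.747% lower. At an unadjusted p under 0.05, 7 members were higher in p53 KO cells and 0 lower. DESeq2 called 4 higher and 0 lower, and the replicate block gave 5 higher (Gbp2, Ifi35, Irf1, Oas1g and Oasl1) and 2 lower (Bst2 and Xaf1). No share of all genes is given for these unadjusted, DESeq2 and block counts, so they are not read as a shift of the members. Under doxorubicin, 21 members were higher in p53 KO cells than in wild-type cells and 5 lower, where 21.7% and 22% of all genes were. The 5 lower ones were Usp18, Igtp, Mx1, Ifi27 and Cxcl10, and 3 of these (Usp18, Ifi27 and Mx1) were called in every alternative that tested them. Without 1 wild-type doxorubicin library, a or b, or p53 KO doxorubicin library 1, neither Igtp (adjusted p of 0.065 to 0.10) nor Cxcl10 (0.055 to 0.18) was called. The median log2 difference under doxorubicin was 1.65 over the members, against 0.02 over all genes.

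The summed levels of marker genes of other cell types were higher with the drug in each genotype, though not each marker was. The summed level of 8 leukocyte or macrophage markers was 27.1 to 28 CPM in p53 KO doxorubicin libraries, against 19.1 to 19.3 CPM in p53 KO vehicle libraries. It was 72.4 to 73.7 CPM in Dux KO doxorubicin libraries, against 16.1 to 16.3 CPM in Dux KO vehicle libraries, and 57.3 to 61 CPM in wild-type doxorubicin libraries, against 18.2 to 18.6 CPM in wild-type vehicle libraries. Lyz2 was at 0 in the p53 KO vehicle libraries, Ptprc in the wild-type vehicle libraries and both in the Dux KO vehicle libraries, and all 8 had a count in each drug group. The sum was thus lowest in p53 KO cells among the drug groups. Cd68 made up most of it in Dux KO and wild-type doxorubicin libraries, with 17.3 and 11.2 CPM in p53 KO doxorubicin libraries, against 8.63 and 9.72 CPM with vehicle, 64.8 and 61.6 CPM in Dux KO doxorubicin libraries, against 10.4 and 10.7 CPM with vehicle, and 45.7 and 39.6 CPM in wild-type doxorubicin libraries, against 9.13 and 9.57 CPM with vehicle. Cd3e was lower with the drug in wild-type cells, at 0.193 and 0.266 CPM with doxorubicin, against 1.86 and 1.2 CPM with vehicle. The sum of 8 fibroblast or feeder markers was 29 to 30.9 CPM in p53 KO doxorubicin libraries, against 15.1 to 20.4 CPM in p53 KO vehicle libraries, and 43.6 CPM in both wild-type doxorubicin libraries, against 12.3 to 13.4 CPM in wild-type vehicle libraries. In Dux KO cells it was 30.9 to 37.2 CPM with doxorubicin, against 12.5 to 13.7 CPM with vehicle. Dcn was at 0 in both p53 KO groups, and Dcn and Lum in each vehicle group, with Col3a1 also at 0 in Dux KO vehicle libraries. Pdgfrb was lower with the drug in wild-type cells, at 1.99 and 1.46 CPM with doxorubicin, against 4.89 and 7.4 CPM with vehicle. All 8 embryonic stem cell markers were detected in each group, at a sum of 2320 to 3010 CPM in p53 KO doxorubicin libraries, against 4570 to 4900 CPM in p53 KO vehicle libraries. That sum was 1880 to 2140 CPM in Dux KO doxorubicin libraries, against 4620 to 6100 CPM with vehicle, and 825 to 954 CPM in wild-type doxorubicin libraries, against 4940 to 5030 CPM with vehicle. The part of these shifts in the results on the members was not tested.

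Among the sensors, Ddx58 (RIG-I, which detects viral RNA ends; chr4:40203773-40239828, GRCm38) rose in p53 KO cells, fell in Dux KO cells and was not called in wild-type cells. Its level was 43.4 and 45.5 CPM in p53 KO doxorubicin libraries, against 15.9 and 19.6 CPM in p53 KO vehicle libraries. The level was 4.11 and 3.09 CPM in Dux KO doxorubicin libraries, against 11.6 and 12.7 CPM in Dux KO vehicle libraries. Wild-type cells had 14.5 and 13.8 CPM with doxorubicin, against 16.9 and 16.8 CPM with vehicle. The groups did not overlap in any of the 3 genotypes, and the p53 KO doxorubicin libraries were the highest of all 12. The log2 response was 1.32 ± 0.19 (SE) in p53 KO cells (edgeR adjusted p = 0.0039), -1.69 ± 0.22 in Dux KO cells (adjusted p = 0.00088) and -0.25 ± 0.19 in wild-type cells (adjusted p = 0.29). Its p53 KO response exceeded the wild-type response by 1.57 ± 0.26 (adjusted p = 0.004) and the Dux KO response by 3.02 ± 0.29 (adjusted p = 0.0026).

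Zbp1, a sensor of Z-form nucleic acid that can start cell death (chr2:173206612-173218923), rose in all 3 genotypes. It had 25.8 and 7.14 CPM in p53 KO doxorubicin libraries, against 1.39 and 0.333 CPM in p53 KO vehicle libraries. Dux KO cells had 16.6 and 23 CPM with doxorubicin, against 1.28 and 1.58 CPM with vehicle, and wild-type cells had 25.6 and 23.2 CPM with doxorubicin, against 1.17 and 1.27 CPM with vehicle. Line 1 of p53 KO cells was above line 2 in both treatments, and no drug group overlapped its vehicle group. The log2 response was 4.27 ± 0.71 in p53 KO cells (edgeR adjusted p = 0.0062) and 4.32 ± 0.70 in wild-type cells (adjusted p = 0.00091), and the difference of these responses was -0.05 ± 0.97 (adjusted p = 1). Ifih1, which codes for the long-RNA sensor MDA5, was called in wild-type cells and not in p53 KO or Dux KO cells, with 32 counts in wild-type doxorubicin libraries against 2 in wild-type vehicle libraries and 50 counts in p53 KO doxorubicin libraries against 12 in p53 KO vehicle libraries. Its rise in wild-type cells was lost without wild-type vehicle library a or doxorubicin library a (adjusted p of 0.11 and 0.13), and no difference of its p53 KO response from the wild-type one was called (adjusted p = 0.48 by edgeR). Dhx58 (LGP2, a regulator of both sensors) was not called in any genotype (adjusted p = 0.21 by edgeR in p53 KO cells, 0.035 with the replicate block), at 1.78 to 3.75 CPM with doxorubicin and 0.999 to 2.05 CPM with vehicle over all genotypes.

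The OAS family makes short chains of linked adenosine that activate the RNA-cutting enzyme RNase L. All 7 of its members had a higher response in p53 KO than in wild-type cells and a higher level in p53 KO than in wild-type cells under doxorubicin. Of all genes tested, 9.9% and 21.7% were called in these directions. Within p53 KO cells, 2 of the 7 rose and 0 fell, where 9.31% and 8.09% of all genes did. Within wild-type cells 0 rose and 5 fell, where 29% and 23.4% of all genes did. With the replicate block 7 of the 7 rose in p53 KO cells, and 6 with the block and the recovered library. The family median of the difference between the responses was 3.26 on the log2 scale. Oasl2, Oas2 and Oas3 lost the call on this difference in 10, 6 and 3 alternatives.

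Oas1a (chr5:120896256-120907521) had 71.6 and 45.2 CPM in p53 KO doxorubicin libraries, against 37.5 and 39.9 CPM in p53 KO vehicle libraries. Dux KO cells had 11 and 12.6 CPM with doxorubicin, against 31.3 and 47.6 CPM with vehicle. Wild-type cells had 5.21 and 3.92 CPM with doxorubicin, against 29.2 and 28.9 CPM with vehicle. The drug libraries were thus the lowest of their genotype in Dux KO and wild-type cells and the highest in p53 KO cells. Its log2 response was 0.59 ± 0.22 in p53 KO cells (edgeR adjusted p = 0.098, and 0.02 with the replicate block), -1.40 ± 0.27 in Dux KO cells (adjusted p = 0.005) and -2.67 ± 0.24 in wild-type cells (adjusted p = 4.2e-05). Its p53 KO and wild-type responses differed by 3.26 ± 0.33 (adjusted p = 0.00048).

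Oas1g (chr5:120876142-120887613), the neighbour of Oas1a, had 67.8 and 53.8 CPM in p53 KO doxorubicin libraries, against 37.2 and 46 CPM in p53 KO vehicle libraries. Wild-type cells had 3.22 and 3.16 CPM with doxorubicin, against 21.8 and 25.3 CPM with vehicle, and Dux KO cells had 8.83 and 10.8 CPM with doxorubicin, against 24.8 and 39.2 CPM with vehicle. Its pattern over the groups was that of Oas1a, and its p53 KO response exceeded the wild-type one by 3.43 ± 0.28 (edgeR adjusted p = 0.00026). Oas1a and Oas1g are near-identical copies, with 57.6% of the 50-base words of Oas1a also found in other transcripts, so counts may be split between them. Oas1b, a member known in mice for resistance to flaviviruses, shares few such words. It had 3.54 and 3.28 CPM in p53 KO doxorubicin libraries, against 1.97 and 1.73 CPM in p53 KO vehicle libraries. In wild-type cells it had 0.322 and 0.465 CPM with doxorubicin, against 2.18 and 3.14 CPM with vehicle. It fell in wild-type cells by a log2 of -2.75 ± 0.42 (edgeR adjusted p = 0.00063), and the responses differed by 3.63 ± 0.56 (adjusted p = 0.0026).

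Oasl1, which in mice limits translation of the factor IRF7, had 11.5 and 6.78 CPM in p53 KO doxorubicin libraries, against 5.04 and 3.53 CPM in p53 KO vehicle libraries. The wild-type levels were 0.193 and 0.399 CPM with doxorubicin, against 2.33 and 2.02 CPM with vehicle, and the Dux KO levels were 0.679 and 0.765 CPM with doxorubicin, against 2.8 and 3.56 CPM with vehicle. The fall in wild-type cells had a log2 of -2.87 ± 0.45 (edgeR adjusted p = 0.00081), the p53 KO value of 1.09 ± 0.37 did not pass (adjusted p = 0.072, and 0.0065 with the replicate block), and the difference was 3.96 ± 0.59 (adjusted p = 0.0023). Under doxorubicin its p53 KO level exceeded the wild-type level by a log2 of 4.94 ± 0.46 (adjusted p = 6.2e-05). Oas3, the longest enzyme of the family, had 5.34 and 3.28 CPM in p53 KO doxorubicin libraries, against 2.49 and 2 CPM in p53 KO vehicle libraries. Its wild-type levels were 0.772 and 0.798 CPM with doxorubicin, against 2.41 and 1.57 CPM with vehicle. The responses differed by 2.28 ± 0.54 (edgeR adjusted p = 0.019), which was lost without wild-type vehicle library a or either wild-type doxorubicin library (adjusted p of 0.067 to 0.078).

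Oas2 and Oasl2 rose in p53 KO cells with and without the replicate block. Oas2 had 17.8 and 12.7 CPM in p53 KO doxorubicin libraries, against 5.78 and 3.6 CPM in p53 KO vehicle libraries. It stayed between 3.6 and 6.01 CPM in the libraries of the other 5 groups. Its log2 response was 1.70 ± 0.33 in p53 KO cells (edgeR adjusted p = 0.011) and 0.05 ± 0.33 in wild-type cells (adjusted p = 0.91), a difference of 1.65 ± 0.46 (adjusted p = 0.035). That difference was lost without any 1 of the 4 wild-type libraries, without p53 KO vehicle library 2 and without p53 KO doxorubicin library 1 (adjusted p of 0.071 to 0.12). Oasl2 had 2.46 and 3.5 CPM in p53 KO doxorubicin libraries, against 0.658 and 0.533 CPM in p53 KO vehicle libraries, and 0.257 and 0.399 CPM in wild-type doxorubicin libraries, against 0.233 and 0.374 CPM in wild-type vehicle libraries. Its p53 KO response of 2.32 ± 0.43 passed (adjusted p = 0.009) and its difference from the wild-type response, 2.21 ± 0.66 (adjusted p = 0.044), was lost without p53 KO doxorubicin library 2, without any 1 wild-type library and without either p53 KO vehicle library.

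**Figure D4:**
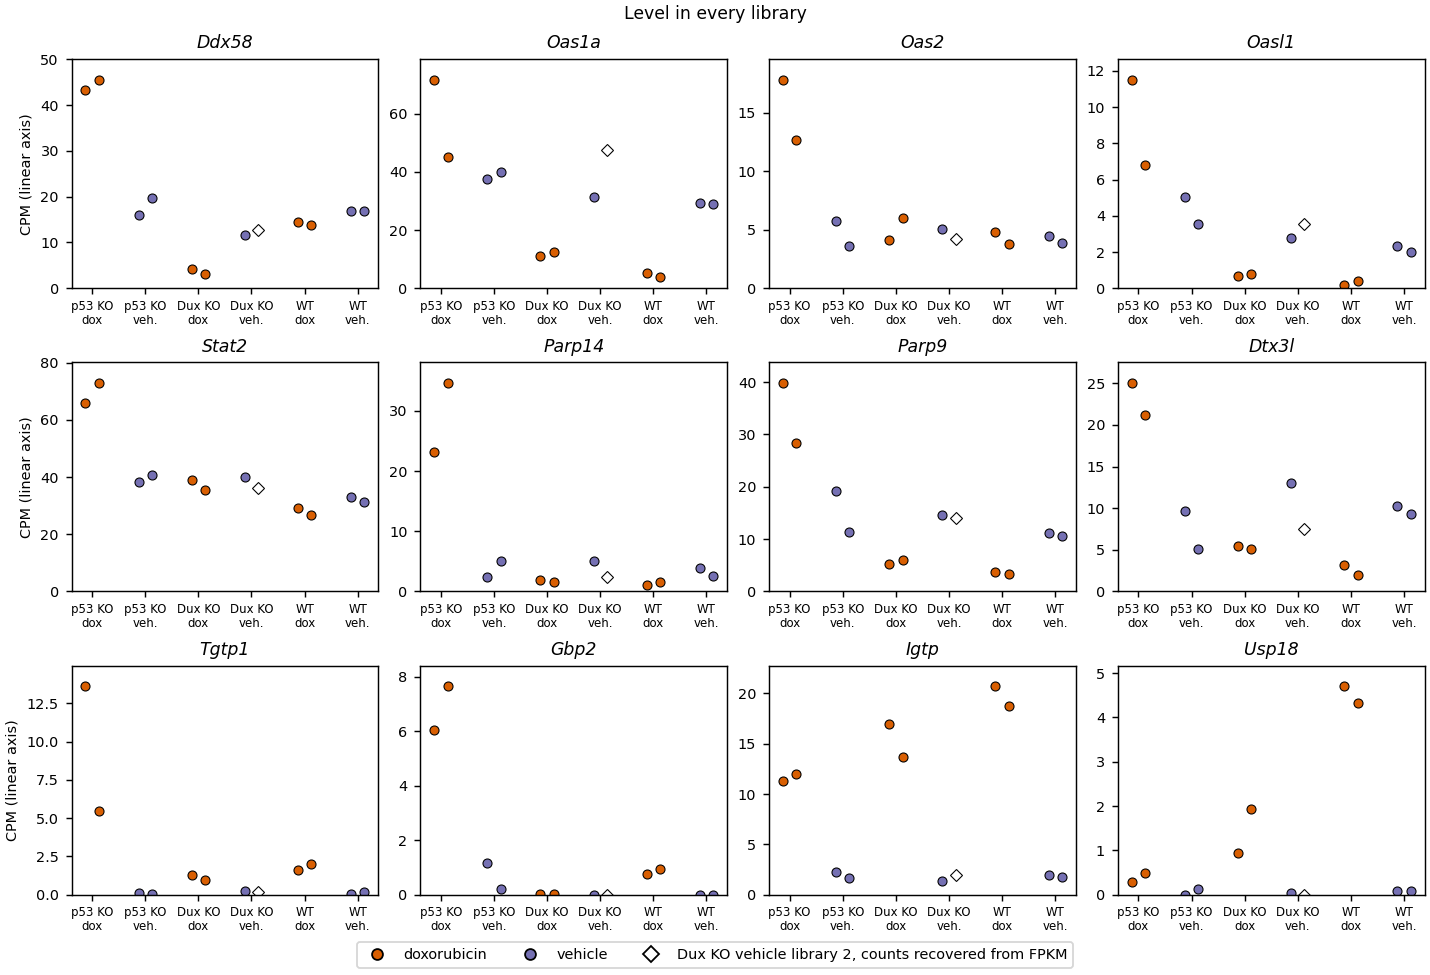
Level of 12 members in every library (points, CPM on linear axes that start at 0), with groups in the order p53 KO, Dux KO and wild type and doxorubicin left of vehicle. The p53 KO doxorubicin libraries are the highest for Ddx58, Oas2, Oasl1, Stat2, Parp14, Parp9, Dtx3l, Tgtp1 and Gbp2, while for Usp18 the wild-type doxorubicin libraries are, at 4.7 and 4.32 CPM.

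Of the transcription factors, Stat2 (chr10:128270559-128292849) rose in p53 KO cells. It had 66 and 72.8 CPM in p53 KO doxorubicin libraries, against 38.3 and 40.8 CPM in p53 KO vehicle libraries. Dux KO cells had 38.8 and 35.5 CPM with doxorubicin, against 40 and 36.2 CPM with vehicle, and wild-type cells had 29.3 and 26.6 CPM with doxorubicin, against 32.9 and 31.4 CPM with vehicle. All 10 other libraries lay below the lower p53 KO doxorubicin library. The log2 response was 0.81 ± 0.13 in p53 KO cells (edgeR adjusted p = 0.0056), against -0.20 ± 0.13 in wild-type cells (adjusted p = 0.22), a difference of 1.01 ± 0.18 (adjusted p = 0.0055). Irf9, which joins STAT2 in the complex on the ISRE, had 16.3 and 13.1 CPM in p53 KO doxorubicin libraries, against 12.8 and 12.5 CPM in p53 KO vehicle libraries, and 8.27 and 7.38 CPM in wild-type doxorubicin libraries, against 13 and 11.9 CPM in wild-type vehicle libraries. It fell in wild-type cells (-0.67 ± 0.19 on the log2 scale, edgeR adjusted p = 0.017; 0.054 to 0.097 without either vehicle library or doxorubicin library b), and the responses differed by 0.88 ± 0.27 (adjusted p = 0.048). The Irf9 difference was lost in 10 alternatives, among them 7 of the 8 that leave out 1 library of these groups (all but p53 KO doxorubicin library 2). Irf7, a factor that drives interferon genes, rose in wild-type cells (43 counts with doxorubicin against 4 with vehicle) and was not called in p53 KO cells (34 counts against 16). Irf1, an early-induced factor, was not called in any drug response (in p53 KO cells the adjusted p was 0.15 by edgeR and 0.032 with the replicate block), at 50.1 and 55.4 CPM in p53 KO doxorubicin libraries and 17.6 and 14.8 CPM in wild-type doxorubicin libraries, and under doxorubicin it was higher in p53 KO cells by a log2 of 1.71 ± 0.21 (edgeR adjusted p = 0.00025).

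The IFIT genes, whose proteins bind foreign RNA ends, were barely detected. Ifit1 had 18 counts in p53 KO doxorubicin libraries and 0 in p53 KO vehicle libraries, so that it was at least 2.99-fold higher (taking 3 counts in each vehicle library as the floor), and this was not called (edgeR adjusted p = 0.14). Of the 18 counts, line 1 gave 16. Ifit2 had 2.5 and 0.999 CPM in p53 KO doxorubicin libraries, against 1.17 and 0.599 CPM in p53 KO vehicle libraries, which overlap, and fell in wild-type cells, with 0.193 and 0.133 CPM with doxorubicin, against 0.622 and 0.972 CPM with vehicle (edgeR adjusted p = 0.035; 0.058 to 0.15 without any 1 wild-type library). Ifit3 and Ifit3b, near-identical copies, had 4 counts each in p53 KO doxorubicin libraries and 0 in p53 KO vehicle libraries.

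The ISG15 system attaches the ubiquitin-like protein ISG15 to other proteins, and it was grouped here with ubiquitin ligases and ADP-ribose transferases induced by interferon. Of its 6 members, 4 rose in p53 KO cells (Isg15, Dtx3l, Parp9 and Parp14), and 4 fell in wild-type cells (Trim25, Dtx3l, Parp9 and Parp14). Of all genes tested, 9.31% rose in p53 KO cells and 23.4% fell in wild-type cells. Parp14, a transferase of single ADP-ribose units (chr16:35832874-35871544), had 23.2 and 34.6 CPM in p53 KO doxorubicin libraries, against 2.34 and 5.13 CPM in p53 KO vehicle libraries. It had 1.92 and 1.57 CPM in Dux KO doxorubicin libraries, against 5.13 and 2.4 CPM in Dux KO vehicle libraries, and 1.16 and 1.6 CPM in wild-type doxorubicin libraries, against 3.85 and 2.54 CPM in wild-type vehicle libraries. The lower p53 KO doxorubicin library was above every library of the other groups, and in both other genotypes the drug libraries were below the vehicle libraries. The log2 response was 2.95 ± 0.42 in p53 KO cells (edgeR adjusted p = 0.0038), -1.55 ± 0.47 in Dux KO cells (adjusted p = 0.037) and -1.21 ± 0.42 in wild-type cells (adjusted p = 0.038). Its p53 KO and wild-type responses differed by 4.16 ± 0.59 (adjusted p = 0.0019), and its p53 KO and Dux KO responses by 4.50 ± 0.62 (adjusted p = 0.0055). The falls were lost without any 1 wild-type library in wild-type cells and without either doxorubicin library in Dux KO cells (adjusted p of 0.051 to 0.20).

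Dtx3l, a ubiquitin ligase, and Parp9, its partner protein, are neighbouring genes on opposite strands whose ends overlap. Dtx3l had 25 and 21.2 CPM in p53 KO doxorubicin libraries, against 9.65 and 5.09 CPM in p53 KO vehicle libraries, and 3.22 and 1.99 CPM in wild-type doxorubicin libraries, against 10.3 and 9.31 CPM in wild-type vehicle libraries. Parp9 (chr16:35938470-35972605) had 39.8 and 28.4 CPM in p53 KO doxorubicin libraries, against 19.2 and 11.4 CPM in p53 KO vehicle libraries, and 3.7 and 3.42 CPM in wild-type doxorubicin libraries, against 11.1 and 10.6 CPM in wild-type vehicle libraries. Both moved in opposite directions in p53 KO and wild-type cells, with no overlap of drug and vehicle libraries in either. The responses differed by 3.55 ± 0.48 for Dtx3l (edgeR adjusted p = 0.0015) and 2.76 ± 0.39 for Parp9 (adjusted p = 0.0019). Within p53 KO cells the log2 response was 1.65 ± 0.33 for Dtx3l (edgeR adjusted p = 0.012) and 1.16 ± 0.27 for Parp9 (adjusted p = 0.021). The rise of Parp9 in p53 KO cells was lost without p53 KO vehicle library 2 or doxorubicin library 1 (adjusted p = 0.068 for each).

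Isg15 (chr4:156199424-156200818) had 4.86 and 0.928 CPM in p53 KO doxorubicin libraries, against 0.0731 and 0 CPM in p53 KO vehicle libraries, and at most 0.129 CPM in any library of the other genotypes. The 166 counts with doxorubicin against 2 with vehicle in p53 KO cells give a ratio of 83.8 (95% counting interval 22.8 to 698), called by edgeR (adjusted p = 0.019). Line 1 held most of these counts, and the call was lost without p53 KO doxorubicin library 1 (adjusted p = 0.063) or vehicle library 2 (adjusted p = 0.068). Its difference from the wild-type response was not called (adjusted p = 0.92). Usp18, which removes ISG15 and damps receptor signalling, rose in wild-type and Dux KO cells and was not called in p53 KO cells (adjusted p = 0.091 by edgeR, 0.019 with the replicate block), with 0.277 and 0.5 CPM in p53 KO doxorubicin libraries and 4.7 and 4.32 CPM in wild-type doxorubicin libraries. Under doxorubicin Usp18 was lower in p53 KO cells by a log2 of -3.53 ± 0.65 (edgeR adjusted p = 0.0022), and 62.8% of its span is shared with a lincRNA gene on the opposite strand. Trim25, the ligase that assists RIG-I, had 103 and 136 CPM in p53 KO doxorubicin libraries, against 109 and 159 CPM in p53 KO vehicle libraries, and 81.5 and 80.2 CPM in wild-type doxorubicin libraries, against 128 and 123 CPM in wild-type vehicle libraries. Its fall in wild-type cells (log2 -0.63 ± 0.19, edgeR adjusted p = 0.02) was lost without any 1 of the 4 wild-type libraries (adjusted p of 0.070 to 0.088).

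The interferon-induced GTPases act on the membranes around intracellular pathogens, and members of this group rose with and without p53. Of 8 members, 6 rose in p53 KO cells, where 9.31% of all genes rose, 4 rose in Dux KO cells, where 14.5% did, and 7 rose in wild-type cells, where 29% did. None fell in any genotype by edgeR, though Tgtp2 and Mx2, with at most 2 counts in each tested vehicle group, could hardly fall. None had a p53 KO response that edgeR called different from the wild-type one, where 1 member was higher and 2 lower at an unadjusted p under 0.05 and DESeq2 called 0 higher and 1 lower. The replicate block called Tgtp1 higher and Igtp lower. For these unadjusted, DESeq2 and block counts no share of all genes is given. Igtp (chr11:58199556-58207591) had 11.3 and 12 CPM in p53 KO doxorubicin libraries, against 2.23 and 1.66 CPM in p53 KO vehicle libraries. Dux KO cells had 17 and 13.7 CPM with doxorubicin, against 1.34 and 1.98 CPM with vehicle, and wild-type cells had 20.7 and 18.8 CPM with doxorubicin, against 1.94 and 1.72 CPM with vehicle. The 6 drug libraries lay above the 6 vehicle libraries, lowest in p53 KO cells. The log2 response was 2.58 ± 0.24 in p53 KO cells (edgeR adjusted p = 0.0015) and 3.43 ± 0.25 in wild-type cells (adjusted p = 1.5e-05), a difference of -0.85 ± 0.33 (adjusted p = 0.11, and 0.042 with the replicate block). Igtp lies within the span of Irgm2 for 99.2% of its length, so the counts of this pair of genes may be mixed.

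Tgtp1 (chr11:48985327-48994172) had 13.6 and 5.5 CPM in p53 KO doxorubicin libraries, against 0.146 and 0.0666 CPM in p53 KO vehicle libraries. The wild-type levels were 1.61 and 1.99 CPM with doxorubicin, against 0.0777 and 0.15 CPM with vehicle, and the Dux KO levels were 1.32 and 0.983 CPM with doxorubicin, against 0.272 and 0.176 CPM with vehicle. It rose in each genotype, with a log2 of 6.46 ± 0.64 in p53 KO cells (edgeR adjusted p = 0.0017), though in Dux KO cells not without either doxorubicin library (adjusted p of 0.14 and 0.092). The difference from the wild-type response, 2.52 ± 1.02, was not called (adjusted p = 0.12 by edgeR, 0.033 with the replicate block). Under doxorubicin its level was higher in p53 KO cells than in wild-type cells by 2.40 ± 0.47 (adjusted p = 0.0032). Its near-identical copy Tgtp2 had 4.37 and 1.78 CPM in p53 KO doxorubicin libraries, against 0.0731 and 0 CPM in p53 KO vehicle libraries, a ratio of 88.8 (95% counting interval 24.2 to 739). Tgtp2 had 48 counts in wild-type doxorubicin libraries and 0 in wild-type vehicle libraries, at least 6.84-fold higher against a floor of 3 counts per library. Of the 50-base words of Tgtp1, 81.2% occur in other transcripts. Gm12185, a protein-coding gene on the same strand, covers 78% of the span of Tgtp1, and their exons overlap. Over the 11 libraries tested Gm12185 had 11676 counts, against 805 for Tgtp1. Tgtp1 and Tgtp2 also lie wholly inside Olfr56 on the opposite strand, without overlapping exons, so both Tgtp genes are uncertain.

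Irgm1, a regulator of other GTPases of its kind, had 12.6 and 11.8 CPM in p53 KO doxorubicin libraries, against 2.41 and 0.333 CPM in p53 KO vehicle libraries, and 0.868 and 0.583 CPM in Dux KO doxorubicin libraries, against 1.79 and 0.879 CPM in Dux KO vehicle libraries. Wild-type cells had 1.48 and 2.53 CPM with doxorubicin, against 0.311 and 0.598 CPM with vehicle. Its p53 KO response of 3.16 ± 0.72 (edgeR adjusted p = 0.02) exceeded the Dux KO response by 4.46 ± 1.07 (adjusted p = 0.038), which was lost without either Dux KO doxorubicin library (adjusted p of 0.10 and 0.15). The wild-type rise (adjusted p = 0.045) was lost without any 1 wild-type library (adjusted p of 0.064 to 0.21). Gbp2, a guanylate-binding protein (chr3:142620602-142638008), had 6.03 and 7.64 CPM in p53 KO doxorubicin libraries, against 1.17 and 0.2 CPM in p53 KO vehicle libraries, a log2 response of 3.33 ± 0.66 (edgeR adjusted p = 0.015). Its wild-type level was 0.772 and 0.93 CPM with doxorubicin and 0 counts with vehicle, at least 7.44-fold higher, and under doxorubicin it was higher in p53 KO cells by 3.00 ± 0.65 (adjusted p = 0.0065; 0.058 without wild-type doxorubicin library a). Gbp3, its relative, had 1.18 and 1.53 CPM in p53 KO doxorubicin libraries, against 0.0731 and 0.2 CPM in p53 KO vehicle libraries, and 3.22 and 3.12 CPM in wild-type doxorubicin libraries, against 0.0777 and 0 CPM in wild-type vehicle libraries. It rose in both, with an edgeR adjusted p of 0.011 in p53 KO cells and 0.00019 in wild-type cells. Mx1, a dynamin-like antiviral GTPase, rose in Dux KO and wild-type cells, and had 0.416 and 0.285 CPM in p53 KO doxorubicin libraries and 2.32 and 1.79 CPM in wild-type doxorubicin libraries. Mx2 was not called in any genotype, with 28 counts in p53 KO doxorubicin libraries against 2 in p53 KO vehicle libraries (adjusted p = 0.079 by edgeR, 0.041 with the replicate block).

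Of the other effectors, Ifi35 and Ifi27 had a lower response in p53 KO than in Dux KO cells by edgeR. Neither call held in every alternative, and with the recovered Dux KO vehicle library both were lost (edgeR adjusted p of 0.089 and 0.098). Ifi35, a partner of the adaptor NMI, had 15.1 and 14.3 CPM in p53 KO doxorubicin libraries, against 8.41 and 8.26 CPM in p53 KO vehicle libraries, and 8.75 and 8.64 CPM in wild-type doxorubicin libraries, against 4.12 and 4.97 CPM in wild-type vehicle libraries. In Dux KO cells Ifi35 had 14.3 and 12.9 CPM with doxorubicin, against 2.72 and 4.35 CPM with vehicle. It rose in all 3 genotypes, and in p53 KO cells, where the log2 was 0.82 ± 0.20 (edgeR adjusted p = 0.023), the call was lost without p53 KO doxorubicin library 1 or either vehicle library (adjusted p of 0.052 to 0.065). Ifi27, a mitochondrial protein, had 0.971 and 2.85 CPM in p53 KO doxorubicin libraries, against 7.1 and 12.1 CPM in Dux KO doxorubicin libraries and 13.9 and 11.6 CPM in wild-type doxorubicin libraries. With vehicle Ifi27 had 0.512 and 0.666 CPM in p53 KO, 0.233 and 0.747 CPM in Dux KO and 0.777 and 1.27 CPM in wild-type libraries. Rsad2 (viperin, which makes a chain-terminating nucleotide) had 22 counts in wild-type doxorubicin libraries and 0 in wild-type vehicle libraries, at least 3.15-fold higher, and was not called in p53 KO cells. That call was lost without either wild-type vehicle library or doxorubicin library b (adjusted p of 0.059 to 0.062). Bst2 (tetherin, which holds virus particles at the membrane) fell in wild-type cells (edgeR adjusted p = 0.031), which was lost without any 1 wild-type library (adjusted p of 0.086 to 0.13). In p53 KO cells Bst2 differed more between the lines than between the treatments, with 13.2 CPM with doxorubicin and 16 CPM with vehicle in line 1, against 3.64 and 3.66 CPM in line 2. In Dux KO cells it had 2.42 and 4.08 CPM with doxorubicin, against 2.68 and 14.6 CPM with vehicle. Xaf1, a pro-apoptotic factor, had 163 and 73.8 CPM in p53 KO doxorubicin libraries, against 66.8 and 35.3 CPM in p53 KO vehicle libraries, and was not called (adjusted p = 0.053 by edgeR). Both lines were higher with doxorubicin, and Xaf1 rose with the replicate block (adjusted p = 2.1e-05).

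Cxcl10, the chemokine that attracts activated T cells (chr5:92346638-92348889), rose in each genotype and less in p53 KO than in wild-type cells. It had 1.66 and 1.07 CPM in p53 KO doxorubicin libraries, against 0.146 and 0.266 CPM in p53 KO vehicle libraries. Wild-type cells had 3.73 and 4.25 CPM with doxorubicin, against 0 and 0.0748 CPM with vehicle, and Dux KO cells had 0.906 and 2.08 CPM with doxorubicin, against 0 and 0.0879 CPM with vehicle. The drug and vehicle libraries did not overlap in any genotype. The log2 response was 2.70 ± 0.66 in p53 KO cells (edgeR adjusted p = 0.025; 0.051 to 0.089 without either p53 KO vehicle library, without doxorubicin library 1 or with the recovered library), and the ratio of counts in wild-type cells was 105 (95% counting interval 28.7 to 869; adjusted p = 0.00024). The responses differed by -3.89 ± 1.17 (adjusted p = 0.045), with the omissions that end this call given above. Cxcl10 lies wholly inside Art3 on the opposite strand, so its reads may not be told apart from reads of Art3.

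The p53 KO and Dux KO responses, each against its own vehicle, were also compared, although the lone tested Dux KO vehicle library sits in every such value. Without p53 the response was higher in 10 members and lower in 2, where 2.89% and 4.8% of all genes were called. The 10 were Ddx58, Oas1a, Oas1g, Oasl1, Stat2, Dtx3l, Parp9, Parp14, Tgtp1 and Irgm1. The count of 10 became 5 without either Dux KO doxorubicin library and 11 with the recovered vehicle library. The 2 lower ones, Ifi27 and Ifi35, were not called with the recovered library (adjusted p of 0.098 and 0.089). The Dux KO response was higher than the wild-type response in 4 members (Oas1b, Oas1g, Oas3 and Ifi35) and lower in Ddx58, where 2.1% and 3.15% of all genes were called. With the recovered vehicle library the 4 became 0, and leaving out any 1 of the 6 libraries tested also made them 0. The fall of Ddx58 in Dux KO cells was called in every alternative with a count model, while its difference from the wild-type response was lost without any 1 wild-type library or Dux KO doxorubicin library 2 (adjusted p of 0.080 to 0.12). Both knockout comparisons with wild type share the wild-type libraries, and both comparisons of p53 KO share the p53 KO libraries.

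A list of 50 other genes of the pathway was read beside the members, and 38 of them were tested. In p53 KO cells 6 rose and 1 fell, where 9.31% and 8.09% of all genes did without the replicate block. With the block 15 rose, and the share of all genes with the block is not given. Wild-type cells had 15 up and 10 down, where 29% of all genes rose and 23.4% fell. The p53 KO response was higher than the wild-type response in 9 and lower in 7, where 9.9% and 10.3% of all genes were called. The counts of 9 and 7 rest on the wild-type libraries: without 1 of these, 2 to 4 genes were higher, and without vehicle library a 4 were lower. Ifnb1, the genes of the interferon alpha family on the list other than Ifnab, and Ifnl3 had 0 counts in all 12 libraries, each of which allows up to 3 counts. The other ligands with any count (Ifnab, Ifne, Ifnk, Ifnz, Ifng and Ifnl2) lay between 0 and 2.36 CPM in all libraries. Ifnk and Ifng, the only ligands tested, both rose in wild-type cells by edgeR. Ifng, picked out after its values were seen, had 0.579 and 0.731 CPM in wild-type doxorubicin libraries, against 0 and 0 with vehicle. It had 0.139 and 0 CPM in p53 KO doxorubicin libraries, and DESeq2 did not call its wild-type rise (adjusted p = 0.15). The edgeR call on this rise was also lost without any 1 wild-type library. Singled out after its values were seen, Ifnk, a type I interferon known from skin, had 0.277 and 0.214 CPM in p53 KO doxorubicin libraries, against 0.0731 and 0 CPM in p53 KO vehicle libraries, and 1.9 and 2.36 CPM in wild-type doxorubicin libraries, against 0 and 0 in wild-type vehicle libraries. In wild-type cells it was at least 18.6-fold higher against the floor (edgeR adjusted p = 0.0005), and the difference from the p53 KO response was not called (adjusted p = 0.071).

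Mavs, the adaptor of RIG-I and MDA5, had 56.2 and 36.1 CPM in p53 KO doxorubicin libraries, against 38.5 and 29.6 CPM in p53 KO vehicle libraries, and 11.7 and 8.07 CPM in wild-type doxorubicin libraries, against 33.2 and 30.4 CPM in wild-type vehicle libraries. It fell in wild-type cells, and its responses differed by 2.12 ± 0.35 (edgeR adjusted p = 0.0038). Myd88, the adaptor of Toll-like receptors, rose in p53 KO cells by a log2 of 1.51 ± 0.25 (edgeR adjusted p = 0.0059), with 32 and 27.1 CPM with doxorubicin, against 12.6 and 8.12 CPM with vehicle. Its difference from the wild-type response, 1.58 ± 0.35 (adjusted p = 0.013), was lost without wild-type vehicle library b or doxorubicin library b. Eif2ak2, the kinase PKR that stops translation on double-stranded RNA, rose in p53 KO cells (0.62 ± 0.14 on the log2 scale, edgeR adjusted p = 0.018) and fell in wild-type cells (-0.54 ± 0.14, adjusted p = 0.011). The rise was lost without either p53 KO vehicle library (adjusted p of 0.052 and 0.055), the fall without wild-type vehicle library a or doxorubicin library a (0.071 and 0.083), and the difference of 1.16 ± 0.20 (adjusted p = 0.0042) was called in every alternative that tested it.

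In the other direction, Nfkb1, a subunit of NF-kB, had 15.8 and 12.3 CPM in p53 KO doxorubicin libraries, against 22.2 and 11.1 CPM in p53 KO vehicle libraries, and 103 and 100 CPM in wild-type doxorubicin libraries, against 20.3 and 18.6 CPM in wild-type vehicle libraries. The responses differed by -2.62 ± 0.41 (edgeR adjusted p = 0.0028). The adaptor Traf3 differed by -1.75 ± 0.26 (edgeR adjusted p = 0.0022) and the kinase Tbk1, which phosphorylates IRF factors, by -1.08 ± 0.17 (adjusted p = 0.0028), both rising in wild-type cells and not called in p53 KO cells. Of the receptor chains, Ifngr2 differed by -2.03 ± 0.42 (edgeR adjusted p = 0.0096) and Ifnlr1 by 1.41 ± 0.33 (adjusted p = 0.018). The call on Ifngr2 was lost without wild-type vehicle library a, and that on Ifnlr1 without that library or either wild-type doxorubicin library (adjusted p of 0.064 to 0.078). Socs3, a brake on JAK-STAT signalling, fell in p53 KO cells (-0.98 ± 0.19, edgeR adjusted p = 0.012; 0.053 to 0.079 by limma on FPKM) and in wild-type cells (-1.28 ± 0.20, adjusted p = 0.00065).

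The p53 KO lines were also set side by side. Of 35 members with over 3 counts in both p53 KO doxorubicin libraries, 8 were over 2-fold higher in line 1 and 1 in line 2, where 9.51% and 9.29% of 25186 tested genes with such counts were. Of 28 such members in the p53 KO vehicle libraries, 5 were over 2-fold higher in line 1 and 1 in line 2, where 8.74% and 7.54% of 22815 genes were. Among the 19 members with no overlapping gene and under 5% of their 50-base words in other transcripts, 18 were tested. Of these, 7 rose in p53 KO cells (Ddx58, Zbp1, Oasl2, Stat2, Isg15, Irgm1 and Gbp3), and 5 had a higher response than in wild-type cells (Ddx58, Oas1b, Oas3, Oasl2 and Stat2). Of all genes tested, 9.31% and 9.9% were called in these directions.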

How the data were processed

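The authors deposited whole-number counts per Ensembl gene and FPKM values for 12 libraries of poly(A) RNA. TopHat2, DESeq and DESeq2 with build mm10 are named in the submitters' processing notes, and versions, annotation and read counter are not given in the sources used here. Ratios of count to FPKM match whole gene spans. Of deposited counts of at least 500, 26.4% to 33.4% were odd, so counts are not independent single reads, and the intervals and floors printed, which hold counting error alone, are narrower than they should be. A further 6 columns of group averages were not used.

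The count column of Dux KO vehicle library 2 was left out as a repeat of another library. Its counts were recovered from the authors' deposited FPKM (100% of 2503 low values within 0.15 of a whole read, 55637641 in all). In libraries with known counts at least 96.3% of genes were recovered within 1 read or 1%, and at least 77.9% exactly. Limma was fitted to the FPKM of all 12 libraries, Dux KO vehicle library 2 included.

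Counts of 11 libraries were fitted in R 4.3.3 by edgeR 4.0.16 with a mean per group and 5 residual degrees of freedom, after filterByExpr (minimum count 10) and TMM. The test was glmQLFTest on a glmQLFit model, and p-values were adjusted by Benjamini-Hochberg over 28643 genes. CPM are counts over TMM-scaled library sizes. The SE is the log2 value divided by the root of F. Alternatives were RLE scaling, no filter, DESeq2 1.42.0, the recovered library, limma 3.58.1 on log2(FPKM + 1) and log2(FPKM + 0.1) of genes with at least 1 FPKM in 2 libraries, limma without that filter, a replicate block (the line number within each knockout) and leaving out each library in turn.

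Line numbers pair the knockout libraries, since same-numbered libraries come from the same line. Over 28643 genes the deviations from group means of the drug and vehicle libraries correlated at 0.43 in p53 KO line 1 and 0.19 in Dux KO line 1. Members and lists were chosen with earlier results of these data known. Values in every p53 KO library are given for members called in the p53 KO response or its difference from wild type, or down in wild type, at most 24 by adjusted p (26 met the rule, Bst2 and Ifit2 being beyond it). Their wild-type values are given by library or as a range, maximum or total count. Dux KO values are left out for Oas1b, Oas3, Oasl2, Irf9, Trim25, Dtx3l, Parp9, Tgtp2, Gbp2 and Gbp3. Values of other members were chosen after they were seen. Of 19 pathway genes called in the p53 KO response or the difference, the 10 with the smallest adjusted p were taken, and 1 of these is not reported here. Overlaps and gene positions come from GENCODE M21 on GRCm38, and 50-base words from its transcripts.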

Additional observations from a re-analysis of the deposited data

Results flagged for a closer look

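The results gathered here are those where the drug response of a member differed between 2 genotypes by edgeR's test of the difference itself, given as the fitted log2 difference of responses. The p53 KO response was higher than the wild-type response by 1.57 for Ddx58, 3.26 for Oas1a, 3.63 for Oas1b, 3.43 for Oas1g, 1.65 for Oas2, 2.28 for Oas3, 3.96 for Oasl1 and 2.21 for Oasl2. It was also higher by 0.88 for Irf9, 1.01 for Stat2, 3.55 for Dtx3l, 2.76 for Parp9 and 4.16 for Parp14. For Cxcl10 the difference was -3.89, the p53 KO response being lower.

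The p53 KO response was higher than the Dux KO response by 3.02 for Ddx58, 1.99 for Oas1a, 1.88 for Oas1g, 3.04 for Oasl1, 0.92 for Stat2, 2.94 for Dtx3l, 2.54 for Parp9, 4.50 for Parp14, 4.39 for Tgtp1 and 4.46 for Irgm1. The difference was -3.65 for Ifi27 and -1.50 for Ifi35, whose response was lower in p53 KO cells. The Dux KO response differed from the wild-type response by -1.44 for Ddx58, 2.60 for Oas1b, 1.55 for Oas1g, 2.67 for Oas3 and 1.39 for Ifi35. All differences in this paragraph rest on 1 tested Dux KO vehicle library.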

How the results depend on the processing

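Of 117 called member results, 1262 alternative values kept their direction and their call and 215 kept the direction and lost the call. With the replicate block, which pairs the libraries of a knockout line, all 117 kept their call. Without the recovered library, Dux KO line 2 has no vehicle partner in the block. Each Dux KO response there rests on line 1 alone, and the Dux KO libraries add nothing to the estimate of spread. The block also leaves fewer than the 5 residual degrees of freedom of the main fit. The block gave 28 members up in p53 KO cells, 4 lower in the p53 KO than in the wild-type response, 7 higher and 3 lower in the Dux KO than in the wild-type response, and 5 higher and 2 lower in p53 KO cells under vehicle. The block with the recovered library gave 26 up in p53 KO cells, 11 down in Dux KO cells, 2 lower in p53 KO than in wild-type responses, 16 higher in p53 KO than in Dux KO responses, 2 lower in Dux KO than in wild-type responses, and 4 higher and 1 lower under vehicle; this pairing was chosen after seeing the data. The recovered library alone gave 0 lower in the p53 KO response against either other genotype and 0 higher in the Dux KO than in the wild-type response.

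DESeq2 gave 4 lower in p53 KO than in wild-type responses, 2 lower in Dux KO than in wild-type responses and 4 higher under vehicle, and no filter gave 1 higher under vehicle. Limma on log2(FPKM + 1) tested 17 members and gave 5 up and 3 down in Dux KO cells, 5 up and 5 down in wild-type cells, and 11 higher and 3 lower under doxorubicin. It gave 2 lower in p53 KO than in wild-type responses, 1 lower in p53 KO than in Dux KO responses, and 1 higher and 0 lower in Dux KO than in wild-type responses. With a pseudocount of 0.1 these were 5 up and 4 down in Dux KO cells, 5 and 5 in wild-type cells, 11 higher and 2 lower under doxorubicin, 0 lower in p53 KO than in Dux KO responses, and 2 higher and 0 lower in Dux KO than in wild-type responses. Without the FPKM filter it gave 26 up in p53 KO cells, 2 down in Dux KO cells, 5 down in wild-type cells, 18 higher and 5 lower in p53 KO than in wild-type responses, 15 higher and 1 lower in p53 KO than in Dux KO responses, and 1 higher and 3 lower in Dux KO than in wild-type responses. For these changes the cause was not tested. Limma used the FPKM of all 12 libraries, among them both Dux KO vehicle libraries, and with its filter tested fewer members.

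Leaving out 1 library at a time gave 14 to 21 up in p53 KO cells, 8 to 8 up and 3 to 3 down in Dux KO cells, 12 to 13 up and 6 to 7 down in wild-type cells, and 9 to 16 higher and 0 to 1 lower in p53 KO than in wild-type responses. It gave 5 to 11 higher and 0 to 2 lower in p53 KO than in Dux KO responses, 0 to 0 higher and 0 to 1 lower in Dux KO than in wild-type responses, 0 to 1 higher under vehicle (1 without p53 KO vehicle library 2), and 16 to 23 higher and 3 to 4 lower under doxorubicin. The lone tested Dux KO vehicle library could not be left out. No share of all genes is given for the counts of the alternatives in this section. Under RLE scaling the all-gene median shifted by 0.10 in the wild-type response, -0.12 in the p53 KO minus wild-type difference and -0.11 under doxorubicin. Genes with few counts, such as Isg15, Ifit1 and Rsad2, have wide counting intervals.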
